A study of Mus musculus with 4 samples.

Results

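The Wnt signalling genes described here are 39 genes with an accessible region in a comparison of Rela knockout and wild-type fibroblasts. Of the 67 genes in that table annotated to the KEGG Wnt signalling pathway, 38 were taken because they carry none of the KEGG pathways for MAP kinase signalling, actin regulation, axon guidance, cell cycle or ubiquitin-mediated proteolysis and are neither Smad3 nor Smad4. Lgr5, which has no KEGG annotation in the table, was added by name. Together they are 39 of 7224 named genes and hold 41 regions in the Rela table. In the table of the Kindlin-2 comparison, 9 of them hold 1 region each. The choice thus leaves out central pathway members with several annotations, such as Gsk3b, Myc and Wnt5a, which are described separately near the end.

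Accessibility was measured by ATAC-seq, in which a transposase cuts open chromatin and tags the cut ends for sequencing. The Rela pair was 3T3 cells, a mouse embryo fibroblast line, of genotype Rela wt or Rela K.O., Rela encoding the p65 subunit of NF-kB. The Kindlin-2 pair was mouse kidney fibroblasts of genotype Kindlin-2 floxed, in which the gene is flanked by recombination sites, or Kindlin-2 K.O., Kindlin-2 being an adaptor of integrin tails. All 4 groups were at passages 15 to 20 in serum-containing medium, with no treatment named, and the labels do not say whether a line is 1 clone. The design text names 2 biological replicates per genotype, but each genotype has 1 column of values. No difference below therefore has a replicate check or a p-value.

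Wnt ligands are secreted lipid-modified proteins that bind Frizzled receptors and their co-receptors at the cell surface. In the beta-catenin branch this stops a complex built on axin from marking beta-catenin for destruction, so that beta-catenin enters the nucleus and activates genes together with TCF and LEF factors. In the planar polarity and calcium branches, Frizzled and dishevelled act instead on the cytoskeleton or on phospholipase C. In fibroblasts the pathway is known for roles in matrix production and wound repair, and secreted antagonists such as the SFRP proteins restrain it.

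Values are the authors' background-corrected, DESeq-normalized signal, called signal here, and each table was normalized on its own. A region was called higher or lower in a knockout when log2((knockout + 1)/(control + 1)), its log2 ratio, reached 1 in either direction, which is 2-fold. Brackets give the 95% interval of a ratio of 2 signals, found by the exact Clopper-Pearson method from the read counts that the values imply, and cover counting error alone. The Rela table had 28445 regions, with column sums of 1386832 in wild type and 1458609 in knockout, and a median region rested on 49.8 and 36.9 implied counts. The Kindlin-2 table had 5727 regions and, outside 2 mitochondrial regions, sums of 134996 in floxed and 114217 in knockout cells, with medians of 11.8 implied counts in floxed and an assumed 16 in knockout. The promoter of Rela itself held 21 in the wild type and 27 in the knockout, and accessibility there does not show whether the protein is lost; no region was assigned to Fermt2, the Kindlin-2 gene. Of the listed fibroblast markers, 8 of 12 had a region in the Rela table (summed signal 415 in wild type and 441 in knockout, with 2 regions higher and 2 lower), while Col1a1, Col3a1, Dcn and Lum had none. Epithelial markers had regions for 3 of 8 genes (121 and 52 in sum, with 2 regions higher and 1 lower), leukocyte markers for 3 of 5 (90 and 73), smooth muscle and pericyte markers for 1 of 4 (143 and 76) and endothelial markers for 0 of 4. The part of these markers in the differences below was not tested. The Kindlin-2 table held regions for 0 of 12 fibroblast markers and, of all the others, for 1 gene (Ptprc, 10 and 27), so markers do not check the identity of the kidney cells.

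The sequences shown first are those of starts whose chromatin differed and for which a promoter window was at hand. A window of the RefSeq promoter table (assembly GRCm38.p6) was found for 31 of the 39 genes, with 41 windows in all. Of their starts, 4 lay in a region past 2-fold between Rela genotypes and are shown by the 250 bases before the start, 5′ to 3′, with the bases inside the accessible region in capitals. They are the Vangl2 start (chr1:172027296-172027545, minus strand), the main Prickle2 start (chr6:92706185-92706434, minus strand), an internal Prickle2 start (chr6:92481393-92481642, minus strand) and an internal Prickle1 start (chr15:93519521-93519770, minus strand).
Vangl2: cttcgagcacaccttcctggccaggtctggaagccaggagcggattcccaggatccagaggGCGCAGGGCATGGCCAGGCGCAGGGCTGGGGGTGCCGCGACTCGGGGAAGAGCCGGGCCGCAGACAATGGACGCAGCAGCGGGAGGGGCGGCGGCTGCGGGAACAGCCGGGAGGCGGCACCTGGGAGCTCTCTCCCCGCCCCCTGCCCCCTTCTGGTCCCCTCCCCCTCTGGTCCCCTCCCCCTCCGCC
Prickle2, main start: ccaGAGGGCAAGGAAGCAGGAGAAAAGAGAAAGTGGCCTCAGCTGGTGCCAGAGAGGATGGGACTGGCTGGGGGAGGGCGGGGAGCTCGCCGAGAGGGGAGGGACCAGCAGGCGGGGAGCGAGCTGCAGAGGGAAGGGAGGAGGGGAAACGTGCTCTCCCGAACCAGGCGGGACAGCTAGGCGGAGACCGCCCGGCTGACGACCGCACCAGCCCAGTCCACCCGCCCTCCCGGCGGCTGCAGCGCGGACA
Prickle2, internal start: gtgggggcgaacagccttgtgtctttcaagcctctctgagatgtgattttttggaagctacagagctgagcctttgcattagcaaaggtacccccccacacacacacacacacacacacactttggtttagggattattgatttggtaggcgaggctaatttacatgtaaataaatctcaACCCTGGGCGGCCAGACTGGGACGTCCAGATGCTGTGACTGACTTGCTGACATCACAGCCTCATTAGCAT
Prickle1, internal start: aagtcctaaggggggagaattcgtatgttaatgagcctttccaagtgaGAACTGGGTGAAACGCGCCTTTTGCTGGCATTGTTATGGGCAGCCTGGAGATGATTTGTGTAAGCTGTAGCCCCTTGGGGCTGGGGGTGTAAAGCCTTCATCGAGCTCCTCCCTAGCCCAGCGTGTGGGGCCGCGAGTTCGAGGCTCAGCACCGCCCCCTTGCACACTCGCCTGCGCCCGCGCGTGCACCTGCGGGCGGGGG
The Vangl2, main Prickle2 and internal Prickle1 sequences were rich in G and C (73.6%, 70% and 60.8%) with 18, 18 and 16 CpG dinucleotides, whereas the internal Prickle2 sequence had 48.4% and 4. All 4 belong to Vangl2, Prickle1 and Prickle2, genes of the planar polarity branch, in which Vangl2 is a membrane protein and the Prickle proteins are its cytoplasmic partners. That they share a branch depends on which windows exist. Sfrp1, Lgr5 and Axin1 had no window, and the Plcb4 windows lay outside the accessible regions.

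Across the Rela pair, most Wnt signalling genes kept their accessibility within 2-fold, and the exceptions were mainly weak regions more open in the knockout. Regions of Sfrp1, a secreted Wnt antagonist, Lgr5, a receptor for R-spondins that strengthens Wnt signals, Vangl2, Prickle1 and Plcb4 were higher without Rela. A region inside Axin1, the scaffold of the beta-catenin destruction complex, and the Prickle2 promoter were lower. In numbers, 5 of 41 regions were higher and 2 lower, against 22.4% higher and 21.0% lower among all 28332 regions compared. The share past 2-fold was 17.1% for the Wnt regions (15% for the 40 regions of KEGG-annotated genes, without Lgr5) and 43.3% for all regions. These 2 sets are not alike. The table holds 18207 regions assigned to no gene, whereas 37 of the 41 Wnt regions were promoter regions (centre within 2500 bp of the start). Of these 37, 5 were past 2-fold, beside 22.9% of all promoter regions of named genes, which is the closer background. With 1 column per genotype, none of these shares was tested.

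**Figure D1:**
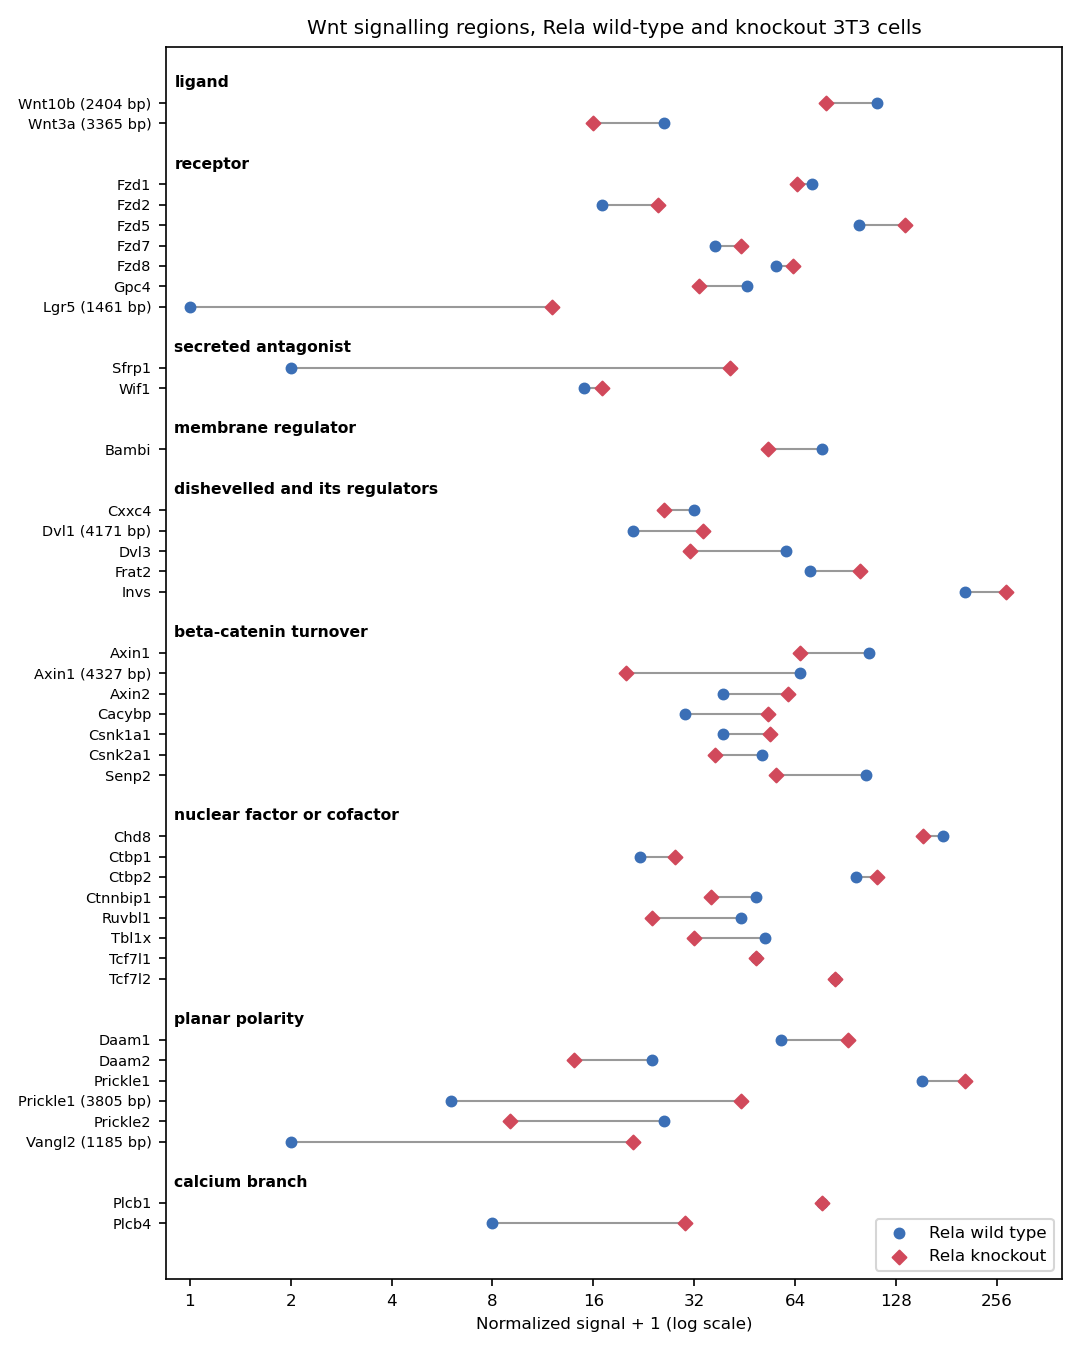
Signal of 40 of the 41 Wnt signalling regions, 1 being left out as not reported here by name, in Rela wild-type (blue circles) and Rela knockout (red diamonds) 3T3 cells, grouped by role, as signal plus 1 on a log axis. Distances in base pairs mark regions over 500 bp from the start; the longest lines belong to Sfrp1 (1 and 40), Lgr5 (0 and 11) and Vangl2 (1 and 20).

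Both Wnt ligand genes with a region, Wnt3a and Wnt10b, were within 2-fold. Of all regions of named genes over 500 bp from the start 36.7% were past it, a share that so few regions cannot be compared with. Wild-type and knockout signal came to 25 and 15 at a region 3365 bp before the Wnt3a start (log2 ratio -0.70) and to 111 and 78 at one 2404 bp before the Wnt10b start (-0.50). Both were thus lower in value in the knockout, and the interval held equality for Wnt3a (0.903 to 3.20 as wild type over knockout) but not for Wnt10b (1.09 to 1.89).

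The 5 Frizzled genes, which encode the seven-pass membrane receptors for Wnt ligands, were open in both genotypes and all within 2-fold. Fzd5 was the strongest receptor promoter, at 98 in wild type and 135 in knockout. Fzd1 had 71 and 64, Fzd8 had 55 and 62, and Fzd7 had 36 and 43. Fzd2, the weakest of the 5, had 16 and 24, and its interval (0.823 to 2.78) reached past 2-fold. Gpc4, a cell-surface heparan sulfate proteoglycan that binds Wnt ligands, had 45 and 32. Among these 6, Fzd5 alone had an interval that did not hold equality (1.09 to 1.75). Of promoter regions of named genes 22.9% were past 2-fold, and 6 regions are too few to compare with that share.

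Lgr5 differed from these receptors in that it had no signal in wild-type cells. Its 1 assigned region, on chromosome 10 (mm10, 115586206 to 115586431), lies 1461 bp inside the gene and went from 0 in wild type to 11 in knockout. Against a floor of 3 counts in the wild-type library, the knockout was at least 5.37-fold higher, and the exact lower limit of the ratio was 3.86. The knockout signal of 11 was itself below that column's median of 35. The mean of both genotypes, lowered by the 0 in wild type, lay at percentile 3.68 of the table's regions. No other region lay within 100 kb of the start, and an unassigned region near the far end of the gene, 136028 bp from the start, ran the other way, with 19 in wild type and 6 in knockout.

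The secreted antagonists Sfrp1 and Wif1 did not share a pattern. Sfrp1 binds Wnt ligands outside the cell, and its promoter region on chromosome 8 (23411278 to 23411609, 58 bp before the start) was at 1 in wild type and at 40 in knockout, a ratio of 40 (9.92 to 2359). The next region in the gene, 17423 bp from the start, held 3 and 6, and one 67080 bp before the start held 3 and 23, so all 3 regions within 100 kb were higher in value in the knockout. Of the 50 nearest regions, over 2.04 Mb, 21 were higher and 3 lower, with a median log2 ratio of 0.80, against which the Sfrp1 promoter stood 3.56 above. Wif1, another secreted protein that binds Wnt ligands, had 14 in wild type and 16 in knockout. Bambi, a membrane pseudoreceptor that also acts on TGF-beta signalling, had 76 and 52.

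**Figure D2:**
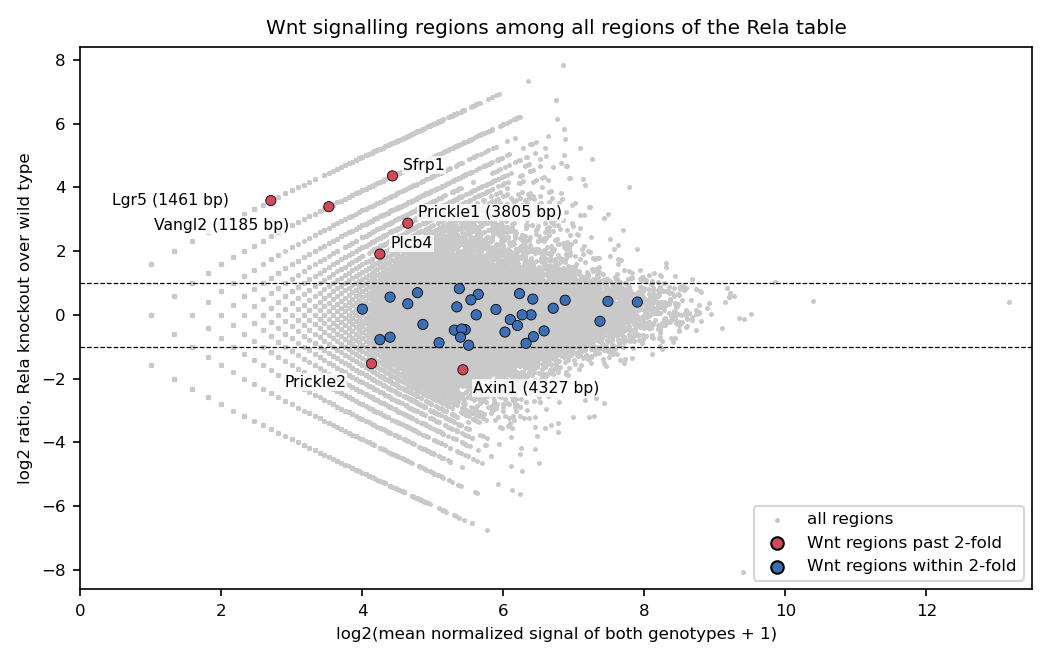
Log2 ratio of signal, Rela knockout over wild type, against log2 of the mean signal plus 1 for all compared regions (grey) and the 41 Wnt regions (blue within 2-fold, red past it). Dashed lines mark 2-fold; 6 of the 7 red points lie below the table's median mean signal of 35.

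Genes that relay the signal through dishevelled were all within 2-fold. Among promoter regions of named genes 22.9% were past it, and these genes are too few to compare with that share. Dvl3, 1 of the dishevelled genes, came closest to the threshold with 59 in wild type and 30 in knockout, 1.97-fold lower (1.28 to 3.00), and passed it once chromosomes were centred or after quantile scaling. A region 4171 bp into Dvl1 had 20 and 33. Frat2, which encodes a GSK3-binding protein, had 70 and 99, and Cxxc4, which encodes an inhibitor that binds dishevelled, had 31 and 25. The strongest Wnt region of all was the promoter of Invs, which encodes inversin, a ciliary protein that turns dishevelled towards the planar polarity branch, with 205 and 271 (ratio 1.32, interval 1.12 to 1.56).

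Among genes that set the turnover of beta-catenin, the 2 axin genes differed in direction, save that the Axin1 promoter turned when centred on neighbouring regions. Axin1 had 2 regions on chromosome 17. Its promoter region (26138312 to 26139049) held 105 in wild type and 65 in knockout, 1.62-fold lower (1.22 to 2.20), and the region 4327 bp inside the gene (26142849 to 26143181) held 65 and 19, 3.42-fold lower (2.09 to 5.85). An unassigned region 40103 bp into Axin1 had 33 in wild type but 0 in knockout. With the knockout set to the floor this is at least 11.6-fold lower, and the interval's limit was 9.01. All 3 were thus lower in value in the knockout, and 19 of the 50 regions nearest to the internal one were lower and 1 higher, with a median of -0.80. Centred on its neighbours, the internal region was within 2-fold (-0.92) and the promoter turned to 0.12.

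Axin2, a feedback inhibitor and widely used readout of beta-catenin activity, went the other way in value, with 38 in wild type and 60 in knockout (1.58-fold, 1.07 to 2.28). Senp2, a SUMO protease, had 103 and 55, 1.87-fold lower (1.38 to 2.58). Cacybp, part of a ubiquitin ligase that acts on beta-catenin, had 29 and 52 (1.79-fold higher, 1.20 to 2.79). Of these 3, Cacybp alone passed 2-fold under another scaling, with a log2 ratio of 1.51 when centred on neighbouring regions. The kinase genes Csnk1a1 (38 and 53) and Csnk2a1 (50 and 36) had intervals that held equality.

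None of the 8 genes for nuclear factors and cofactors was past 2-fold, beside 22.9% of promoter regions of named genes. With so few regions this share was not tested. The promoters of Tcf7l1 and Tcf7l2, the TCF factors that carry beta-catenin to DNA, had the same signal in both genotypes, 48 and 48 and 83 and 83, with intervals of 0.692 to 1.47 and 0.744 to 1.32. The corepressor genes Ctbp1 (21 and 27) and Ctbp2 (96 and 111) and the gene of the chromatin remodeller Chd8 (176 and 153), which binds beta-catenin, also had intervals holding equality. Ctnnbip1, which encodes an inhibitor that keeps beta-catenin from TCF factors, had 48 and 35. The 2 whose intervals did not hold equality were both lower, the ATPase gene Ruvbl1 (43 and 23, 1.16 to 3.16) and the corepressor subunit gene Tbl1x (51 and 31, 1.07 to 2.54).

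Of 6 regions at planar polarity genes, 2 were higher and 1 lower (50% past 2-fold), beside 43.3% of all regions and 22.9% of promoter regions of named genes. All but the internal Prickle1 region were promoter regions, and with so few regions the share was not tested. The Vangl2 region on chromosome 1 (172027033 to 172027484) held 1 in wild type and 20 in knockout, a ratio of 20 (4.69 to 1207). The table places it 1185 bp inside the gene, and it covers 189 of the 250 bases before the RefSeq start printed above. The only other region within 100 kb, at the neighbouring gene Ncstn, held 72 and 53 and was thus not raised in value in the knockout.

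The Prickle1 promoter was among the strongest Wnt regions, with 152 in wild type and 204 in knockout. A smaller region 3805 bp inside the gene (chromosome 15, 93591958 to 93592214) held 5 and 43, 8.6-fold higher (4.0 to 23.5), and the unassigned region at the internal start shown above held 55 and 119 (2.16-fold, 1.61 to 2.87). The main start was therefore open in both genotypes with a ratio of 1.34, while 2 regions farther inside the gene were past 2-fold. Of the 50 regions nearest to the promoter, 21 were higher and 3 lower, with a median log2 ratio of 0.56, and centred on it the promoter turned from 0.42 to -0.14.

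Prickle2 showed the opposite direction at most of its regions. Its promoter region (chromosome 6, 92706114 to 92706431) held 25 in wild type and 8 in knockout, 3.13-fold lower (1.53 to 8.27). Of 8 unassigned regions inside the gene, 6 were also lower, among them regions with 115 and 28, with 88 and 14, and with 44 and 3. The exception that was higher, with 1 and 12 (2.71 to 768), lies at the internal start shown above. The surroundings were lower as well: 24 of the 50 nearest regions were lower and 4 higher, with a median of -0.95, and centred on it the promoter's log2 ratio of -1.53 became -0.58. Daam1 and Daam2, formins that link dishevelled to actin, had promoter signals of 57 and 91 and of 23 and 13, both within 2-fold, and Daam1 just passed when centred on neighbouring regions (1.03).

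**Figure D3:**
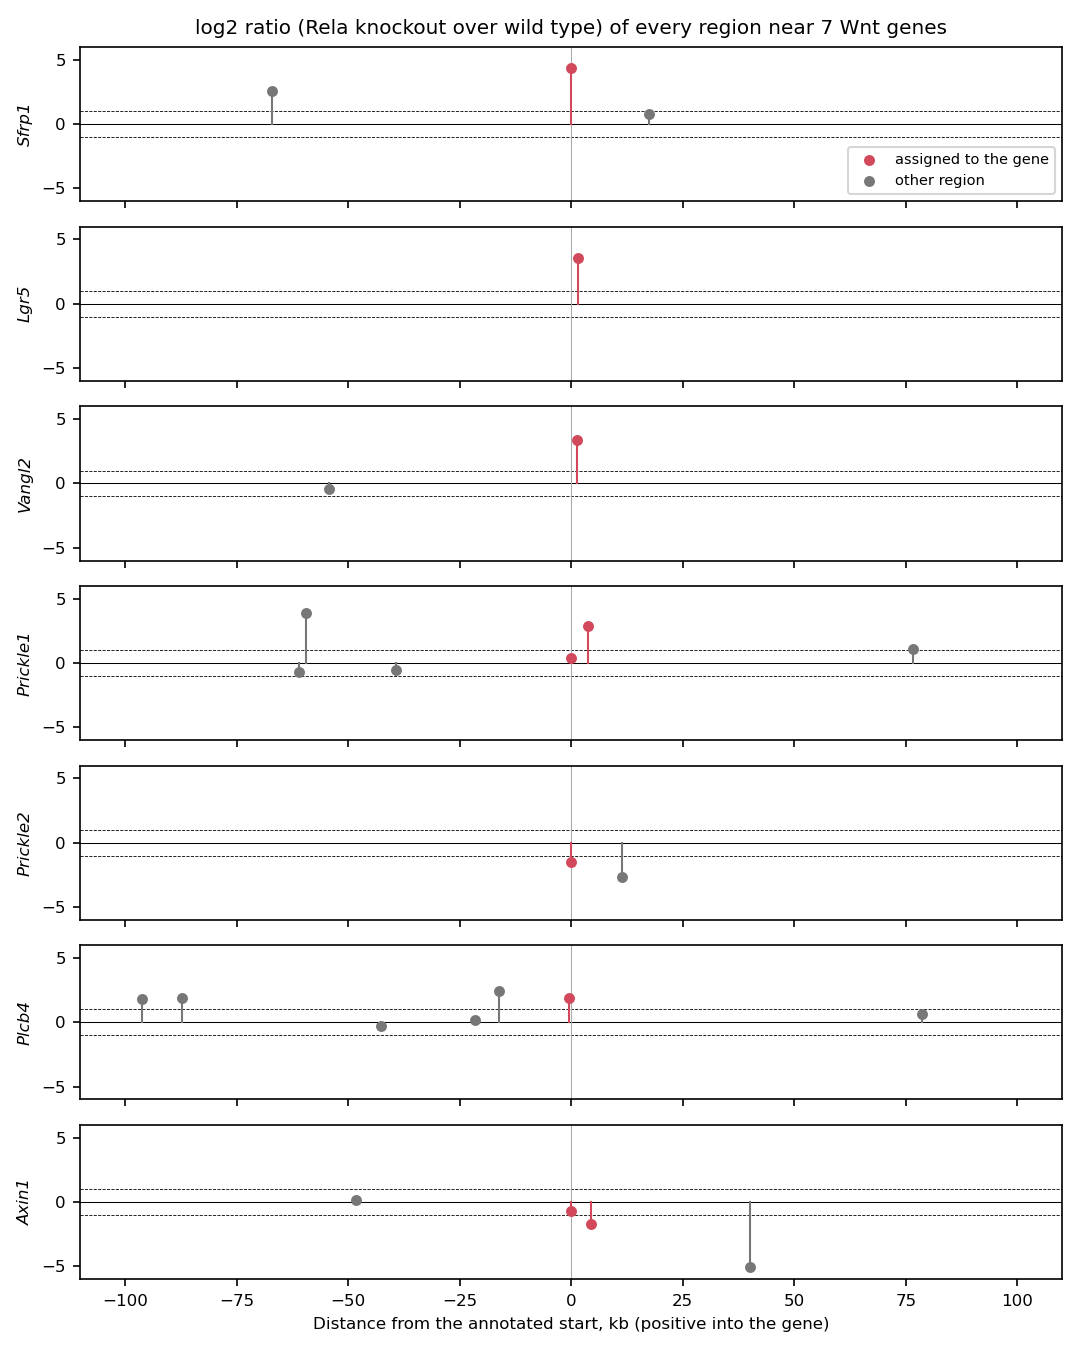
Log2 ratio of signal, Rela knockout over wild type, for each region within 100 kb of the start of the 7 genes with a region past 2-fold, against distance from the start in kb (positive into the gene). Red points are assigned to the gene and grey points are other regions; all regions near Sfrp1 lie above 0, and Lgr5 has no other region in the window.

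In the calcium branch, the 2 phospholipase C genes, whose products release inositol trisphosphate, differed. The Plcb1 promoter had 76 in both genotypes. A region on chromosome 2 (135658483 to 135658746), 396 bp before the annotated Plcb4 start, had 7 in wild type against 29 in knockout, 4.14-fold higher (2.06 to 9.85). Near Plcb4, 3 of 6 other regions within 100 kb were higher and 0 lower, including one 16279 bp before the start with 10 and 57. All 6 were unassigned, and of all unassigned regions 26.6% were higher and 24.4% lower. Of the 50 nearest regions, 16 were higher and 4 lower, with a median log2 ratio of 0.38. Centred on it, the Plcb4 region's log2 ratio of 1.91 became 1.52.

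Wnt regions were also read by signal and by distance from the start, beside all regions of named genes of the same kind. The 37 Wnt promoter regions (centre within 2500 bp of the start) held 5 past 2-fold, beside 22.9% of all promoter regions of named genes. Among them, the 26 with at least the table's median signal held 0 regions past 2-fold, where 15.9% of all such promoters of named genes were. The 11 weaker ones held 5 (45.5%), where 40.1% of all such weak promoters were, a share near the background. Signal here is the mean of both genotypes, which a value near 0 in either one lowers. In the knockout alone, Sfrp1 (40) was above that column's median of 35, whereas Lgr5 (11), Vangl2 (20) and Plcb4 (29) were not. Of the 34 Wnt regions within 500 bp of the start, 3 were past 2-fold (Sfrp1, Plcb4 and Prickle2), beside 20.3% of all such regions of named genes. Of the 7 farther away, 4 were (Lgr5, Vangl2, and the internal regions of Prickle1 and Axin1), beside 36.7%. Vangl2 is placed here by the deposited annotation, although its region spans the RefSeq start used above. Beyond 2500 bp the count was 2 of 4, beside 40.7% of all regions of named genes at such distances.

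The typical Wnt region differed little in either direction. The median log2 ratio was 0 over the 41 regions and 0 over all regions, and the median size of the log2 ratio was 0.50, beside 0.82 for all regions and 0.52 for promoters of named genes. Of the 34 regions within 2-fold, 14 had an interval wholly inside 2-fold in both directions. For 14 regions within 2-fold the interval did not hold equality, 7 of them higher and 7 lower. Of the 7 regions past 2-fold, 6 had an interval wholly beyond 2-fold, the exception being the Prickle2 promoter. These 7 were picked by the same ratios, so this count is no separate support for them.

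Inside the Wnt genes the table also holds 57 regions assigned to no gene, in 16 of the 39 genes, of which 9 were higher and 18 lower. This is 15.8% higher and 31.6% lower, beside 26.6% and 24.4% of all 18207 unassigned regions. The lower ones were led by regions without any signal in the knockout. One 126299 bp into Tcf7l2 held 38 and 0 (at least 13.3-fold lower, interval limit 10.6). The Axin1 region described above held 33 and 0 (at least 11.6-fold, interval limit 9.01). One 156236 bp into Daam1 held 32 and 0 (at least 11.2-fold, interval limit 8.81). Tcf7l2, Axin1 and Daam1 each had a promoter within 2-fold. Prickle2 alone gave 6 of the 18, so regions of 1 gene weigh heavily in this count.

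The long Plcb1 gene held 13 of these regions and they differed both ways, 3 higher and 3 lower, around a promoter with equal signal. One 116392 bp into the gene held 10 in wild type and 98 in knockout (9.8-fold, 5.52 to 17.7) and one 473385 bp into it held 2 and 41 (6.37 to 100.4 for the ratio of 20.5). In the opposite direction, neighbouring regions 182544 and 185818 bp into Plcb1 held 37 and 13, and 42 and 14. Regions lying inside a gene are not shown by these values to act on it.

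**Figure D4:**
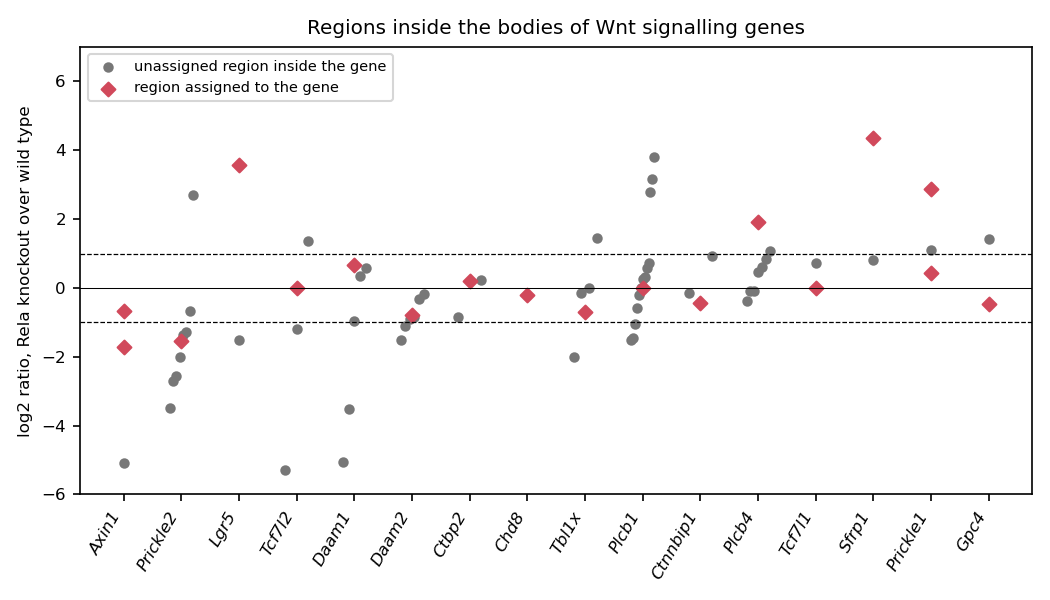
Log2 ratio of signal, Rela knockout over wild type, of the 57 unassigned regions inside 16 Wnt genes (grey circles) and of the regions assigned to the same genes (red diamonds). Dashed lines mark 2-fold; Prickle2 has 6 grey points below the lower line, and single regions of Tcf7l2, Daam1 and Axin1 lie near -5.

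Wnt promoters were searched for the TCF and LEF motif as CTTTGAT or CTTTGAA, the AP-1 motif TGANTCA and the NF-kB consensus, on both strands of the window from 250 bases before to 50 after each start. A TCF and LEF motif stood in 2 of 41 Wnt windows (4.88%), beside 8.65% of all 32851 windows and 5.62% of those of genes named in the Rela table. An AP-1 motif stood in 1 (2.44%, beside 7.81% and 5.58%) and the NF-kB consensus in 5 (12.2%, beside 8.46% and 10.0%). The median content of G and C was 65% with 25 CpG dinucleotides, beside 61% and 20 for the genes of the Rela table. Among windows lying in an accessible region and within 2-fold, 3 held a TCF and LEF motif or the NF-kB consensus before the start, and their 250 bases are shown with the motif in capitals. They belong to Cacybp (chr1:160212893-160213142, minus strand), Fzd5 (chr1:64737751-64738000, minus strand) and Tcf7l2 (chr19:55741560-55741809, plus strand).
Cacybp: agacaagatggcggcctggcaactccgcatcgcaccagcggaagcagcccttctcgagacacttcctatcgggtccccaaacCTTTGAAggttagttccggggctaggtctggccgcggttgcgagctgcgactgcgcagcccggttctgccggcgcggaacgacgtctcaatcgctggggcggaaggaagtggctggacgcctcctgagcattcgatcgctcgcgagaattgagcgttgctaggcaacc
Fzd5: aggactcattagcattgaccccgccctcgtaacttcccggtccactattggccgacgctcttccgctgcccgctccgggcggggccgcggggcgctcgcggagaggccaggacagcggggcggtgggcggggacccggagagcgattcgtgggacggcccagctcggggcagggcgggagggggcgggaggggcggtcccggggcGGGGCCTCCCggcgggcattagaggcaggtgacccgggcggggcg
Tcf7l2: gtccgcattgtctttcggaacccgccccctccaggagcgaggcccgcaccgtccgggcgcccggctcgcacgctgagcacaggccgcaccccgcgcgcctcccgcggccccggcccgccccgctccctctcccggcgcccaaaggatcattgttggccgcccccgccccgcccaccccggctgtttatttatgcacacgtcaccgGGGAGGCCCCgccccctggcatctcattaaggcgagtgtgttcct
The capitals are CTTTGAA in Cacybp and the NF-kB consensus in Fzd5 and Tcf7l2. These 3 promoters held 29 and 52, 98 and 135, and 83 and 83 in wild type and knockout. A match is a description of letters and not of a bound site, and the 4 starts printed earlier held none of these motifs in the bases shown.

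In the Kindlin-2 pair, none of the 9 Wnt regions was past 2-fold, beside 25.4% of all 5727 regions (16.2% higher and 9.27% lower in the knockout). All 9 were promoter regions, and 19.2% of promoter regions of named genes were past 2-fold. The largest difference in value was at Invs, with 19 in floxed and 32 in knockout cells (1.68-fold higher, 0.871 to 3.41). The receptor genes Fzd5, Fzd1 and Fzd7 had 44 and 50, 15 and 14, and 12 and 15. Chd8 had 34 and 41, Cacybp 30 and 24, Frat2 19 and 13, Senp2 16 and 13, and Wif1 14 and 10. All 9 intervals held equality, but only that of Fzd5 (0.722 to 1.85) lay wholly inside 2-fold. For the other 8 a 2-fold difference was within counting error at this depth, though for Chd8 (0.715 to 2.07) only narrowly. These intervals rest on a depth that was assumed for the knockout.

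This shallower table covered 9 of the 39 Wnt genes (23.1%), beside 31.0% of all named genes of the Rela table. Each of the 9 Kindlin-2 regions overlapped the Rela table's region of the same gene, and 7 lay wholly inside it. Sfrp1, Lgr5, Vangl2, Prickle1, Prickle2, Plcb4 and Axin1 had no region in the Kindlin-2 table, so no difference of theirs was measured there. Side by side, Invs was higher in value in both knockouts (205 and 271 for Rela, 19 and 32 for Kindlin-2), as were Fzd5 and Fzd7. Cacybp, Frat2 and Wif1 were higher in value without Rela and lower without Kindlin-2, and Chd8 the reverse. Fzd1 and Senp2 were lower in value in both knockouts, and all 9 genes were within 2-fold in both tables.

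**Figure D5:**
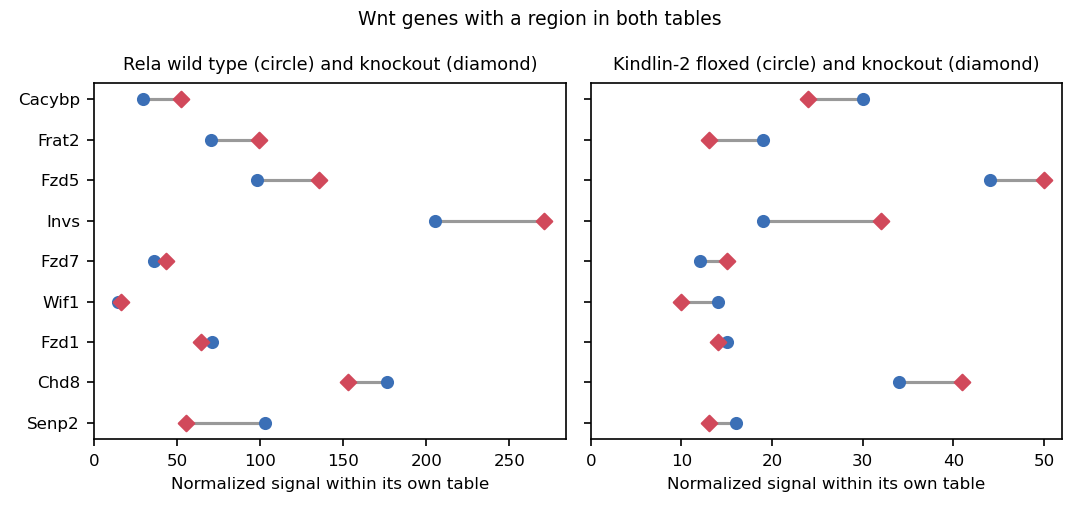
Signal of the 9 Wnt genes with a region in both tables, control as blue circles and knockout as red diamonds, for the Rela pair (left) and the Kindlin-2 pair (right). Each axis starts at 0 and has its own scale because the tables were normalized separately; no gene is past 2-fold in either panel.

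A list of 81 other Wnt pathway genes, among them those the choice left out, was read the same way. Of these, 40 held 46 regions in the Rela table, of which 1 was higher (2.17%) and 7 were lower (15.2%). Among all regions the shares were 22.4% and 21.0%, and among promoter regions of named genes 11.2% and 11.7%. The share of lower regions thus lay between these backgrounds and that of higher regions below both, which was not tested. The lower ones were Smad3 (54 in wild type and 11 in knockout) and Camk2g (46 and 10), a calcium-activated kinase gene, a Nfatc2 region 2272 bp from the start (31 and 9), and Ppp3cb (80 and 34), a calcineurin subunit gene. Rock2 (108 and 47), a kinase that acts on the cytoskeleton, Map3k7 (89 and 39), the TAK1 kinase gene, and Cul1 (92 and 44), a ubiquitin ligase scaffold, were the others. The 1 higher was Siah1b, a ubiquitin ligase gene (44 and 92). Within 2-fold, Gsk3b (277 and 475) and Myc (96 and 139) were higher in value and Wnt5a (19 and 12) was lower. Just under 2-fold were the R-spondin genes Rspo1 (48 and 24, log2 ratio -0.97) and Rspo3 (71 and 36, -0.96), both lower in value. Nfatc3 (74 and 139, 0.90) was higher in value.

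Of the same 81 genes, 15 held 17 regions in the Kindlin-2 table, 3 of them higher (17.6%) and 2 lower (11.8%). These shares were near the 16.2% and 9.27% of all regions. Among promoter regions of named genes 8.26% were higher and 11.0% lower. Ppp3r1, another calcineurin subunit gene, had 44 in floxed and 18 in knockout cells, and Prkaca, a catalytic subunit of protein kinase A, had 31 and 13. The higher ones included a region of Smad4 4654 bp from its start (11 and 35) and one 3122 bp into Mapk8 (1 and 19, interval 2.22 to 580.1). The Mapk8 promoter itself had 29 and 23.

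Through their other KEGG annotations 17 of the 38 annotated Wnt genes also belonged to pathways in cancer, beside 169 of all 2655 annotated genes of the table. Hippo signalling, melanogenesis and basal cell carcinoma each held 13 of them (75, 37 and 20 of all), pluripotency of stem cells 11 (64 of all) and Notch signalling 5 (25 of all). Of the 7 genes with a region past 2-fold, Lgr5 has no KEGG annotation in the table, and Sfrp1, Vangl2, Prickle1 and Prickle2 have the Wnt pathway alone.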

How the data were processed

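Per the submitters' processing notes, the build was mm10 and the tools were STAR 2.4.2a, Trimmomatic 0.33, Picard 1.136, FastQC, bedtools, MACS2, DESeq2 and deepTools, with no role or order given. The authors deposited 1 table per knockout with 1 column per genotype, whose values are a score: background-corrected signal, DESeq-normalized within the table per the labels' name for it, rounded to whole numbers. How 2 replicates became 1 column, any shift for the transposase cut and the handling of duplicates are not stated, and whether starts count from 0 or 1 is not stated (taken as 1).

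Regions with a mean of at least 1 were compared (28332 of 28445 for Rela, all 5727 for Kindlin-2), with a pseudocount of 1, which understates differences of weak regions. Python 3.11.15, numpy 2.4.6, pandas 2.3.3, scipy 1.17.1 and statsmodels 0.14.6 were used, and the procedure was tested on simulated data. The simulated ratios covered neither control signals as low as those of the higher Wnt regions nor the background correction. Whole counts scaled by a factor and rounded leave a pattern in the low values; factors of 0.683 (Rela wild type), 0.949 (Rela knockout) and 1.36 (Kindlin-2 floxed) explained 97.6%, 91.1% and 96.6% of its deviance. For the Kindlin-2 knockout none explained over 12.8%, so 1 was assumed and its depth is uncertain. Intervals use these implied counts, cover counting error only, and leave out error of the background correction. For a fold against 0, that library was set to 3 counts, the floor. Genes in the results are named by rule: each region past 2-fold or just under it, each gene in both tables and the strongest promoters, with the remaining members by role. The genes, lists and rules were chosen with earlier results of these data known. Alternatives were other pseudocounts, filters, scalings and centrings. Some items are counted in the totals but not reported here by name.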

Additional observations from a re-analysis of the deposited data

How the results depend on the processing

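In the Rela pair the number of Wnt regions past 2-fold, 7 as reported, was between 5 and 8 under 8 of 9 alternatives. With only regions whose mean signal reached the table's median it was 1, the internal Axin1 region. In that setting 27 Wnt regions remained, and 6 of the 7 have a lower mean. Centring on the 25 neighbouring regions on each side gave 7 higher and 0 lower: all 5 higher regions stayed, Cacybp and Daam1 were added, and the Axin1 and Prickle2 regions came within 2-fold. Quantile scaling and chromosome centring each gave 8, with Dvl3 added. No region past 2-fold changed direction under any alternative. With a pseudocount of 5 the log2 ratios were 2.91 for Sfrp1, 1.68 for Lgr5, 2.06 for Vangl2 and 2.26 for the internal Prickle1 region, over 1.5 times smaller as ratios than reported but still past 2-fold. In the Kindlin-2 pair the count was 0 under all 9 alternatives. No paired analysis was possible because each genotype has 1 column, and for the same reason no replicate could be left out. Low signal limits the comparison, since a wild-type signal of 0 or 1 leaves the upper end of a ratio all but unbounded.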
